A study of Mus musculus with 16 samples.

Results

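Lysosomal degradation and acidification genes were followed in MPI-2, a line of mouse macrophages that resemble those of the alveoli, after exposure to Mycobacterium abscessus. The 41 genes were given by symbol and found in the count files by Ensembl identifier, with the version removed and the symbol taken from GENCODE M21. All 41 were among the 55359 genes of the files, and all 41 passed the filter on low counts that left 17190 genes for testing. They comprised 15 hydrolases, 2 soluble cofactors, 9 membrane proteins, 12 genes of the proton pump (V-ATPase) and 3 transcription factors of the TFE family.

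Lysosomes break down material taken up by endocytosis, phagocytosis and autophagy, with hydrolases that work at acid pH. The V-ATPase keeps the lumen acid by pumping protons through its membrane sector, V0, with energy from ATP that its cytosolic sector, V1, splits. TFEB, TFE3 and MITF bind a palindromic element in promoters of lysosomal genes, and phosphorylation by mTORC1 holds them in the cytosol, so that their mRNA level is a measure of transcript and not of activity. In macrophages this system digests engulfed bacteria, and mycobacteria are known for hindering the maturation of the phagosome into an acid compartment.

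The 4 groups were uninfected cells at day 1, exposed cells at day 1, uninfected cells at day 5 and exposed cells at day 5, with 4 libraries each. All cells were wild type, belonged to the same line, could come from a wide range of passages and grew in medium with penicillin, streptomycin and GM-CSF, the last a factor on which alveolar macrophages depend. The replicates were labelled as biological, but nothing said that they came from separate founder cultures, so p-values measure the spread between these libraries. No source used here gives the strain, the dose or the share of cells that held bacteria. Libraries held 46154875 to 81995629 counts. Exposed day 5 replicates 2 and 3 bear library codes of another series than the rest in their file names, and they stood at opposite ends of their group for most of the 41 genes, so that day 5 results are also given without them. Of 8 general macrophage markers all 8 were above 20 CPM (counts scaled to a common library size) in every library, and of 8 alveolar macrophage markers all 8 were above 4 CPM, the lowest being Siglecf at 4.29 to 9.87 CPM. Of 21 markers of epithelial, fibroblast, endothelial, T, B and neutrophil cells, 13 stayed under 1 CPM in all 16 libraries, Col1a2 and Cd8a were at 0 throughout, and Epcam reached no more than 0.0254 CPM. Those present at 1 CPM or more in some library were Scgb1a1, Pdgfra (9.05 to 22.1 CPM), Pecam1, Cdh5, Kdr, S100a8 (292 to 1042 CPM), S100a9 and Mpo. Several of the 21 differed with exposure, with values given further on. In bulk RNA, a change in the number of cells of a kind and a change in RNA per cell cannot be told apart.

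Promoter sequences are shown because the TFE factors bind the 8-base palindrome TCACGTGA, whose central 6 bases, CACGTG, are the general E-box of the same factor class. RefSeq promoter windows of 300 bases (250 before to 50 after the start, build GRCm38.p6, an older build than that of the count files) were found for 35 of the 41 genes. Atp6v1c1, Atp6v1b2, Asah1, Npc1, Atp6v0d2 and Atp6v1h had no entry in the table used. Both strands were searched, which for palindromes gives each site once, and every TCACGTGA also counts as a CACGTG. TCACGTGA was present in 4 of the 35 windows (11.4%), against 1.12% of 27025 genes with a promoter in the table. CACGTG was present in 9 of 35 (25.7%), against 8.09% of all genes. The following stretches hold the 8-base palindrome in capitals, for Gla at chrX:134601167-134601255 on the minus strand, Mcoln1 at chr8:3500447-3500506 on the plus strand, Atp6v0d1 at chr8:105566061-105566094 on the minus strand and Atp6v1a at chr16:44139358-44139417 on the minus strand.
Gla: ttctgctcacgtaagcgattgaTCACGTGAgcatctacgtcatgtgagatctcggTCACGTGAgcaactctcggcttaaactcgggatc
Mcoln1: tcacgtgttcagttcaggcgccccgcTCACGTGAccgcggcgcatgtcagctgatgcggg
Atp6v0d1: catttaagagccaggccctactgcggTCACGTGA
Atp6v1a: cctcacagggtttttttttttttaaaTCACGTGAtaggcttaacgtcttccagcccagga
Gla held 2 copies, and Mcoln1 had a further CACGTG, left in lower case, ahead of the capitals. The next stretches hold the 6-base E-box alone, in capitals, for Lamp1 at chr8:13159074-13159160, Gaa at chr11:119267797-119267854 and Glb1 at chr9:114401004-114401061, all on the plus strand.
Lamp1: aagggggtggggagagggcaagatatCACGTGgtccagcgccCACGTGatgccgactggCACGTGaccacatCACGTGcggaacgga
Gaa: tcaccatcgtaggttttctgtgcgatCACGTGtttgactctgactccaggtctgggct
Glb1: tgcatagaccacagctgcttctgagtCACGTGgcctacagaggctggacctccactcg
Lamp1 held 4 copies within this stretch, and Lgmn and Naglu held 1 each in their windows. These are matches of letters and not measured binding sites.

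In the fit of all 16 libraries, exposure was associated with few called differences among these genes at day 1 and with many at day 5. At day 1, 4 of the 41 genes were higher in exposed cells (9.76%, against 13.4% of all genes tested) and 2 were lower (4.88%, against 10.5%), with the quasi-likelihood test of edgeR, adjusted by Benjamini-Hochberg over all 17190 genes, at a threshold of 0.05. Fold changes are given as log2 values ± standard error. In this fit those shares lay below the background, and the median log2 fold change was -0.08, beside 0.03 over all genes tested. The count depends on the pooled spread. In a fit of the 2 day 1 groups alone, 6 genes were higher (14.6%, against 23% of all genes) and 10 were lower (24.4%, against 21.3%). By the libraries alone, 6 genes lay higher without overlap between the day 1 groups (14.6%, against 19.6% of all genes) and 13 lay lower (31.7%, against 19.7%). At day 5, 23 genes were higher (56.1%, against 28.6% of all genes) and 5 were lower (12.2%, against 28.4%), with a median log2 fold change of 0.36 beside 0.02 over all genes. The difference between the effects at the 2 days, tested as an interaction, was positive for 19 genes (46.3%, against 16.4%) and negative for 3 (7.32%, against 19.5%), with a median of 0.34 beside -0.04. Only Gaa changed by 2-fold or more at day 5, so that most differences were moderate in size. Every library held at least 20.4 CPM of every member. On exposed replicates 1 and 4 alone at day 5, 24 genes were higher and 5 lower, and all 23 and 5 genes called with 4 replicates were among them. No share over all genes is given for that fit.

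**Figure D1:**
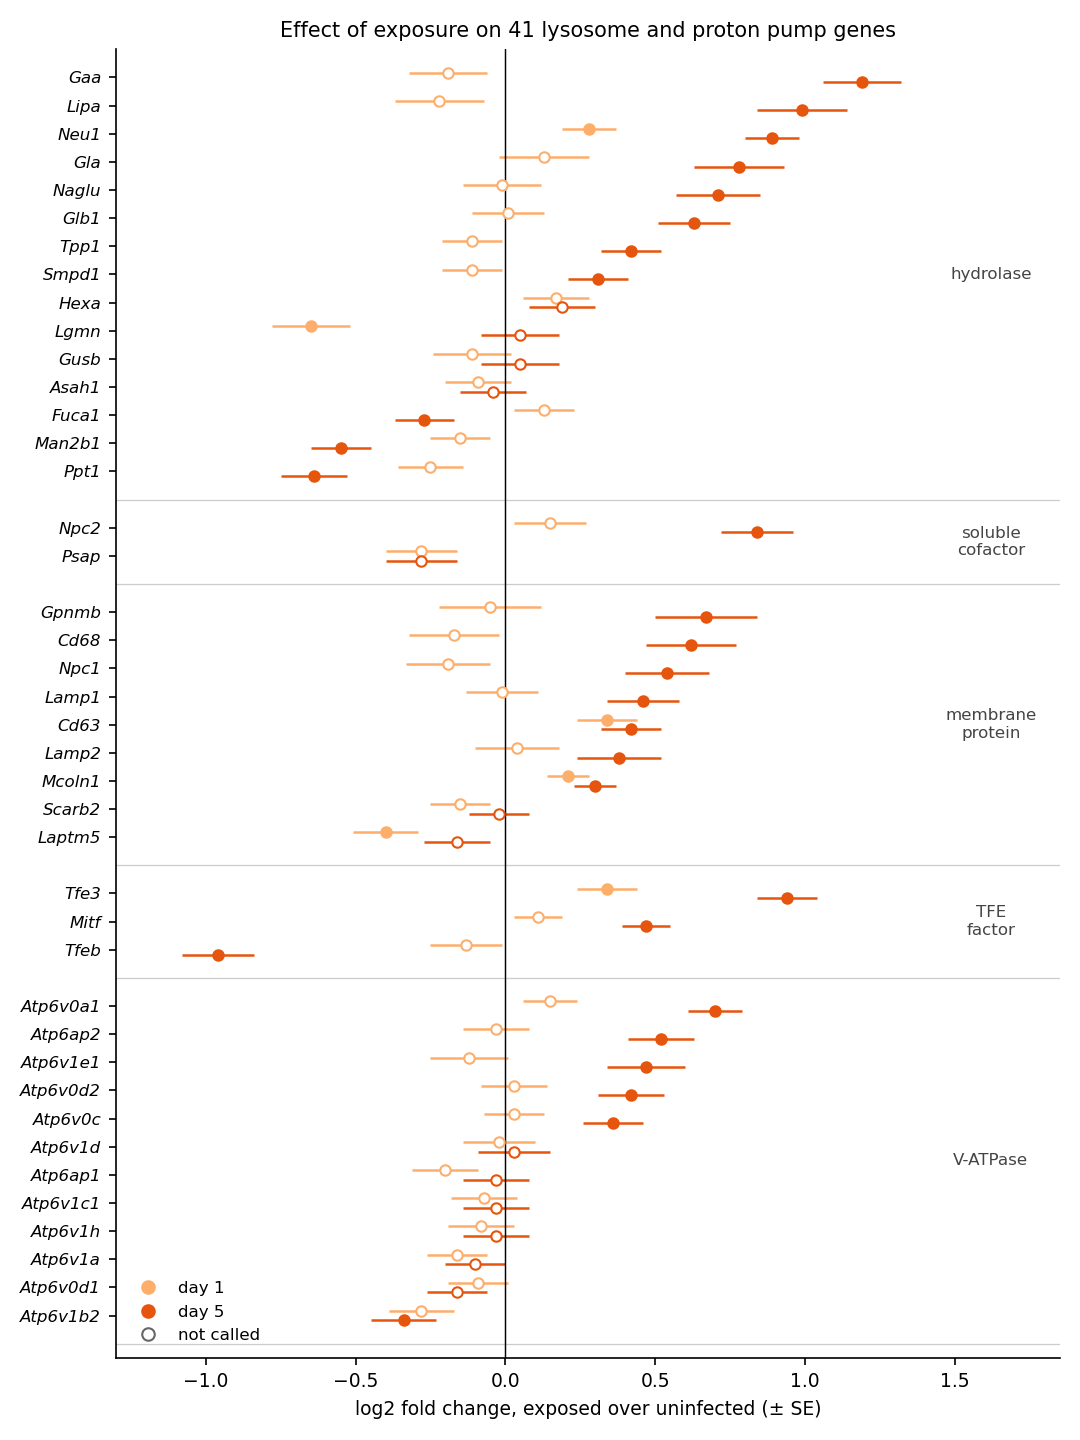
Log2 fold change (x axis) of exposed over uninfected cells for each of the 41 genes (rows, by role), at day 1 in pale and at day 5 in dark orange, with bars of 1 standard error; filled points were called at an adjusted p under 0.05 and open points were not. Most day 1 points lie near 0, and at day 5 the range runs from -0.96 for Tfeb to 1.19 for Gaa.

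Across both days, Neu1, Cd63, Mcoln1 and Tfe3 were called higher each time, and no gene was called in opposite directions. Lgmn and Laptm5 were lower at day 1 and were not called at day 5. In the fit of all libraries, 11 genes were called at neither day. They were Asah1, Gusb, Hexa, Psap, Scarb2, Atp6ap1, Atp6v0d1, Atp6v1a, Atp6v1c1, Atp6v1d and Atp6v1h. For these patterns over both days no share of all genes was taken, so the counts only describe these genes.

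The transcription factors did not move together. Tfeb, which encodes the best-known regulator of lysosomal genes, had 50.0, 50.9, 47.9 and 41.1 CPM in the uninfected day 5 replicates 1 to 4 and 32.6, 20.4, 23.9 and 20.4 CPM in the exposed ones. Every exposed library was below every uninfected one, and Tfeb fell by 0.96 ± 0.12 on the log2 scale (1.95-fold lower, adjusted p = 9.84e-07). Tfe3, its close relative, had 25.9, 28.0, 21.1 and 22.8 CPM in uninfected and 43.3, 51.0, 38.1 and 55.3 CPM in exposed day 5 libraries. Again the groups did not overlap, but the direction was the opposite, with a log2 fold change of 0.94 ± 0.10 (adjusted p = 2.83e-07). Mitf, the third member, known from pigment cells and osteoclasts, had 99.98, 99.0, 97.5 and 92.4 CPM in uninfected and 141, 142, 114 and 140.4 CPM in exposed day 5 libraries, a rise of 0.47 ± 0.08 (adjusted p = 2.85e-05). All 3 calls held whichever single library was left out.

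At day 1, Tfe3 alone among the 3 was called, with 29.4, 28.0, 27.2 and 29.8 CPM in uninfected and 37.5, 35.0, 35.4 and 36.8 CPM in exposed libraries. That rise of 0.34 ± 0.10 (adjusted p = 0.0225) had no overlap between groups, but the call ended on leaving out exposed replicate 1 or 4 or uninfected replicate 2 or 3 (adjusted p of 0.0551 to 0.0673). Tfeb had 58.6, 54.9, 63.3 and 58.5 CPM uninfected and 55.8, 53.3, 54.3 and 51.5 CPM exposed at day 1, with a log2 fold change of -0.13 ± 0.12 that was not called. Mitf had 103, 102, 94.5 and 102 CPM uninfected and 105, 105, 107 and 115 CPM exposed at day 1, likewise not called (0.11 ± 0.08). The change of the exposure effect between days was -0.83 ± 0.16 for Tfeb (adjusted p = 0.000665), 0.60 ± 0.15 for Tfe3 (adjusted p = 0.00349) and 0.36 ± 0.11 for Mitf (adjusted p = 0.0124).

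Per kilobase of merged exons, the balance of Tfe3 to Tfeb differed between groups. The ratio was 0.298 ± 0.0236 (SD, n = 4) in uninfected and 0.413 ± 0.0177 in exposed cells at day 1, and 0.316 ± 0.032 in uninfected and 1.24 ± 0.413 in exposed cells at day 5. Uninfected cells thus held more Tfeb than Tfe3 by this measure in every library, while exposed day 5 libraries ranged from 0.813 to 1.66. A two-sided exact permutation test gave p = 0.0286 at either day, the smallest that the 70 splits of 4 against 4 libraries allow, and 0.0286 after adjustment over the 4 ratios tested. The ratio was chosen after the values had been seen, which the adjustment does not cover. At day 5 both genes stood apart in opposite directions, so their ratio had to as well. The p there was thus fixed beforehand and adds nothing to the tests of the genes.

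**Figure D2:**
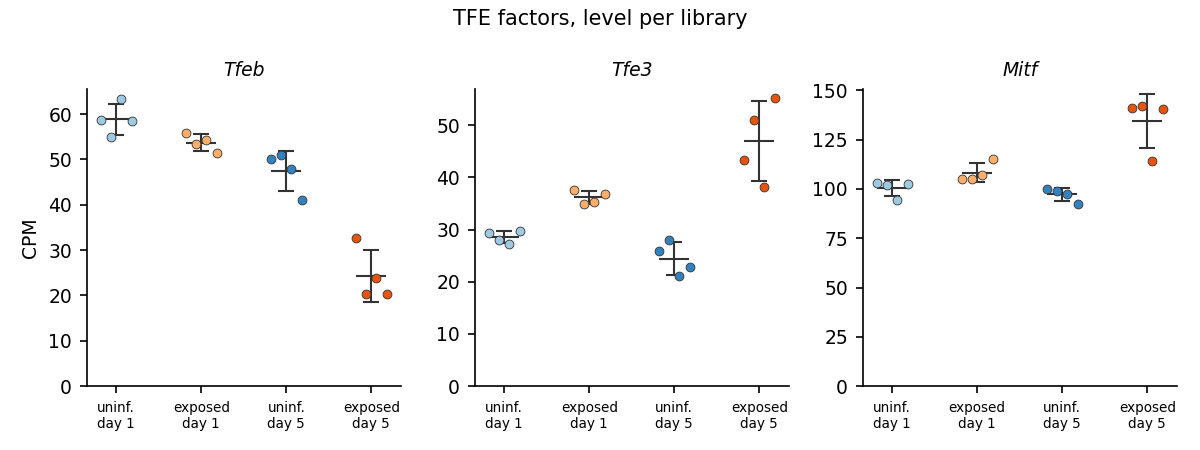
CPM (y axis, from 0) of Tfeb, Tfe3 and Mitf in each library of the 4 groups (x axis), with the mean and SD of 4 libraries as bars. Tfeb is lowest in exposed cells at day 5, where Tfe3 and Mitf are highest.

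Of the 15 hydrolases, 8 rose and 3 fell at day 5, with a median log2 fold change of 0.31. Over all genes tested, 28.6% were higher and 28.4% lower, with a median of 0.02. Gaa, acid alpha-glucosidase, which degrades glycogen, had 41.5, 44.5, 43.0 and 39.8 CPM in uninfected and 91.9, 126, 65.8 and 101 CPM in exposed day 5 replicates 1 to 4. All exposed libraries exceeded all uninfected ones, and the change was 1.19 ± 0.13 on the log2 scale (2.28-fold, adjusted p = 2.39e-07). Lipa, lysosomal acid lipase, which frees cholesterol and fatty acids from esters, had 661, 665, 663 and 599.5 CPM uninfected and 1091, 1771, 872 and 1403 CPM exposed, and rose by 0.99 ± 0.15 (adjusted p = 1.99e-05). Neu1, the lysosomal sialidase, had 192, 186, 183 and 167 CPM uninfected and 325, 403, 289.9 and 332 CPM exposed, and rose by 0.89 ± 0.09 (adjusted p = 7.28e-08). For both genes the groups stood apart, with replicate 2 the highest and replicate 3 the lowest of the exposed libraries. Glb1, the acid beta-galactosidase whose activity underlies the senescence-associated stain, had 83.1, 86.8, 84.6 and 73.8 CPM uninfected and 124, 159.6, 92.0 and 133 CPM exposed, a rise of 0.63 ± 0.12 (adjusted p = 0.000132). Its exposed replicate 3 lay just above the highest uninfected library.

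The other hydrolases that rose at day 5 were Gla, Naglu, Tpp1 and Smpd1. Group means here and later are given ± SD over 4 libraries. Gla, alpha-galactosidase A, went from a mean of 177 ± 8.43 CPM in uninfected to 305 ± 98.1 CPM in exposed cells (log2 fold change 0.78 ± 0.15, adjusted p = 0.000268). Naglu, which removes N-acetylglucosamine from heparan sulfate, went from 149 ± 9.73 to 244 ± 65.7 CPM (0.71 ± 0.14, adjusted p = 0.000162). Tpp1, a tripeptidyl peptidase, rose from 219.5 ± 15.9 to 294 ± 55.5 CPM, by 0.42 ± 0.10 (adjusted p = 0.00192). The exposed libraries spread over 216 to 441 CPM for Gla and 173 to 330.1 CPM for Naglu, above all uninfected ones, while for Tpp1 exposed replicate 3 lay inside the uninfected range. Smpd1, acid sphingomyelinase, rose from 51.2 ± 3.73 to 63.5 ± 11.4 CPM, by 0.31 ± 0.10 (adjusted p = 0.0149), a call that ended without exposed replicate 2 or uninfected replicate 4 (adjusted p of 0.0543 to 0.0574).

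Man2b1, Ppt1 and Fuca1 moved the other way. Man2b1, an alpha-mannosidase that trims glycans, had 255, 272, 249 and 224 CPM uninfected and 174, 199.9, 138 and 169 CPM exposed at day 5, a change of -0.55 ± 0.10 (adjusted p = 6.3e-05). Ppt1, which removes palmitate from proteins, had 159, 155, 199 and 189.8 CPM uninfected and 109, 137, 105 and 101 CPM exposed, a change of -0.64 ± 0.11 (adjusted p = 6.56e-05). Every exposed library of these genes lay below every uninfected one. Fuca1, alpha-fucosidase, had 426, 417, 451 and 401 CPM uninfected and 367, 417, 294 and 323 CPM exposed, with 1 exposed library inside the uninfected range. Its change of -0.27 ± 0.10 (adjusted p = 0.0285) was not called without exposed replicate 3 or 4 or uninfected replicate 1 or 3 (adjusted p of 0.0535 to 0.079).

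Hexa, Gusb, Asah1 and Lgmn were not called at day 5. Hexa, the alpha chain of beta-hexosaminidase, had a mean of 410.2 ± 13.0 CPM in uninfected and 469 ± 85.1 CPM in exposed cells at day 5 (log2 fold change 0.19 ± 0.11). Gusb, beta-glucuronidase, had 229.9 ± 22.2 and 238 ± 55.5 CPM (0.05 ± 0.13). Asah1, acid ceramidase, had 173 ± 13.4 and 169 ± 26.7 CPM (-0.04 ± 0.11). Each difference was smaller than the SD of the exposed libraries. In the annotation, 12.8% of Hexa's exon bases overlap a gene on the opposite strand, and 5.49% of Glb1's overlap the same-strand gene Tmppe. Lgmn, the asparaginyl endopeptidase legumain, differed at day 1 instead, with 81.3, 92.0, 83.9 and 81.2 CPM in uninfected and 56.9, 54.7, 55.6 and 47.7 CPM in exposed libraries. That change of -0.65 ± 0.13 (adjusted p = 0.00136) had no overlap between groups and held whichever single library was left out. At day 5 the uninfected libraries had themselves come down to 51.7, 47.9, 59.4 and 47.3 CPM, and the exposed ones had 48.0, 67.2, 37.8 and 60.5 CPM (0.05 ± 0.13, not called).

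Neu1 was the single hydrolase called higher at day 1, with 204, 199.8, 199 and 195 CPM uninfected and 251, 225, 248 and 244 CPM exposed (0.28 ± 0.09, adjusted p = 0.0266). The groups did not overlap, yet the call ended on leaving out any one of 7 of the 8 libraries, the exception being exposed replicate 2 (adjusted p of 0.0552 to 0.0767). The exposure effect was more positive at day 5 than at day 1 for 9 hydrolases. They were Gaa (1.37 ± 0.18), Lipa (1.21 ± 0.22), Naglu, Lgmn, Gla, Glb1, Neu1, Tpp1 and Smpd1. For Lgmn the effect went from -0.65 at day 1 to 0.05 at day 5, so a decrease was no longer seen. The effect was more negative at day 5 for Man2b1 and Fuca1 (both -0.41, with standard errors of 0.14). Of all genes tested, 16.4% had a positive and 19.5% a negative interaction. Among these interaction calls, those of Gla, Smpd1, Man2b1 and Fuca1 were lost on leaving out at least 1 library. For Gla they were exposed day 1 replicate 4, uninfected day 1 replicate 2 and uninfected day 5 replicate 2 (adjusted p of 0.0507 to 0.0563). For Man2b1 they were exposed day 1 replicate 1, uninfected day 1 replicate 1 and uninfected day 5 replicate 2 (0.0504 to 0.0565). Smpd1 lost its call without any of 10 libraries (0.0533 to 0.0675) and Fuca1 without any of 9 (0.0575 to 0.0747).

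**Figure D3:**
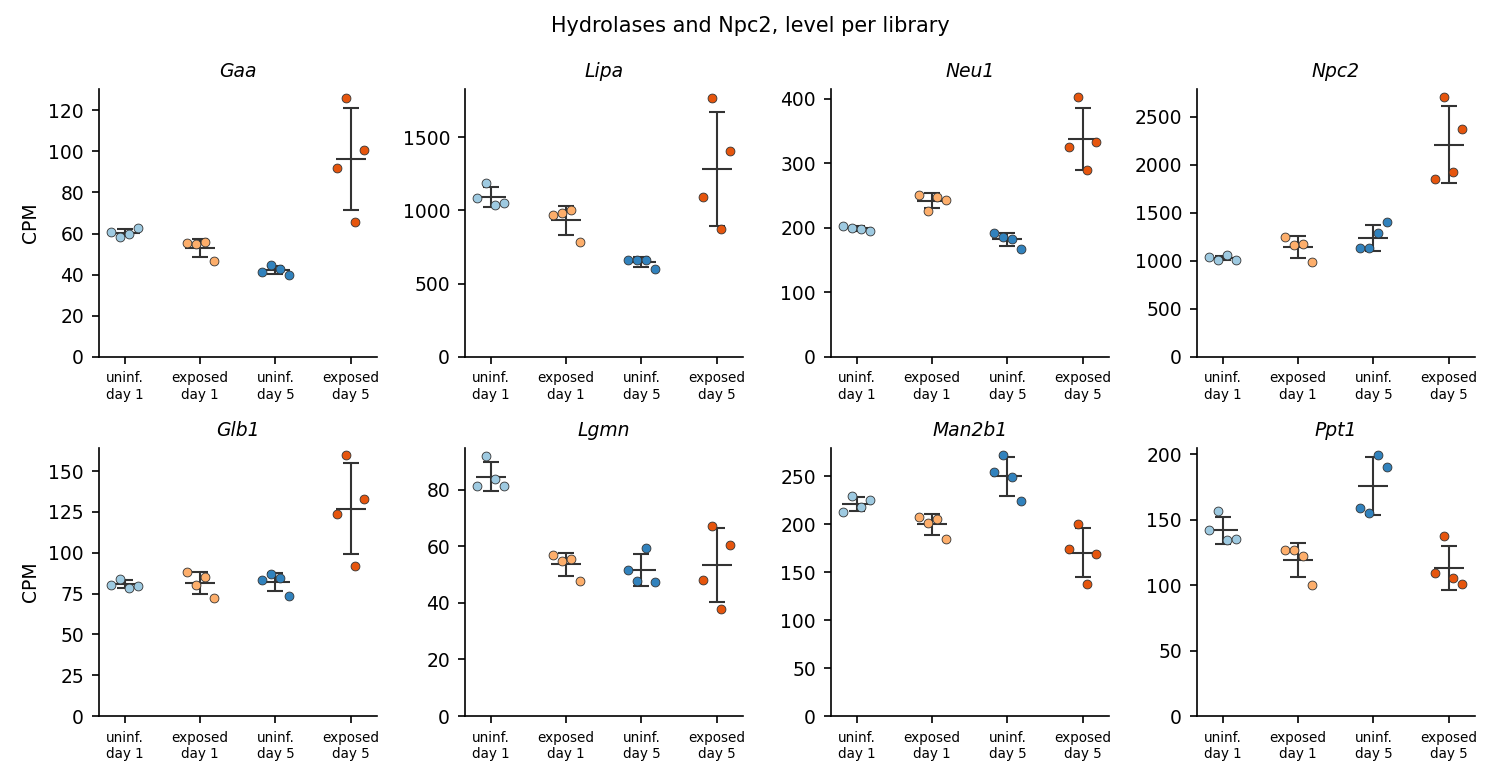
CPM (y axis, from 0) of 7 hydrolases and the cofactor Npc2 in each library of the 4 groups (x axis), with the mean and SD of 4 libraries as bars. Gaa, Lipa, Neu1, Npc2 and Glb1 are higher in exposed cells at day 5, Man2b1 and Ppt1 are lower, and Lgmn is highest in uninfected cells at day 1.

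The soluble cofactors Npc2 and Psap differed from each other. Npc2, a small protein that hands cholesterol to the membrane, had 1128, 1134, 1287 and 1401 CPM in uninfected and 1848, 2702, 1921 and 2367 CPM in exposed day 5 libraries. It rose by 0.84 ± 0.12 (adjusted p = 7.14e-06) with no overlap between groups, and its effect was larger at day 5 than at day 1 (interaction 0.68 ± 0.17, adjusted p = 0.00385). Psap, the precursor of the saposins that present sphingolipids to hydrolases, was the most abundant of the 41 genes, with group means of 6646 ± 46.2 CPM uninfected and 5460 ± 484 CPM exposed at day 1, and 5105 ± 293 CPM uninfected and 4207 ± 795 CPM exposed at day 5. Its log2 fold change was -0.28 ± 0.12 at day 1 and -0.28 ± 0.12 at day 5. Neither passed the test in edgeR with all libraries (adjusted p = 0.104 and 0.0617), but DESeq2 called Psap lower at both days. Its day 1 groups did not overlap. In edgeR it was called lower at day 1 in the fit of the 2 groups alone, and at day 5 without exposed replicate 2.

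Of the 9 membrane proteins, 7 rose at day 5 and none fell, with a median log2 fold change of 0.42. The shares of all genes tested were 28.6% higher and 28.4% lower. The count of none was the same at an unadjusted p under 0.05 and in DESeq2 (0 genes each). Without exposed replicate 2, however, 6 membrane proteins were higher and 1, Laptm5, was lower, with no share over all genes given for that fit. Mcoln1, the calcium channel that signals to TFE factors, had 79.0, 80.9, 74.0 and 75.1 CPM uninfected and 97.1, 92.7, 97.4 and 92.2 CPM exposed at day 5, a small rise of 0.30 ± 0.07 with little spread (adjusted p = 0.000872). Cd63, a tetraspanin of late endosomes, had 854, 826, 872 and 969 CPM uninfected and 1150, 1385, 1163 and 1023 CPM exposed (0.42 ± 0.10, adjusted p = 0.00147). Both genes had every exposed library above every uninfected one. Cd68, the heavily glycosylated protein used as a macrophage marker, had 659, 709, 663 and 589 CPM uninfected and 831, 1398, 729 and 1074 CPM exposed (0.62 ± 0.15, adjusted p = 0.00155). Its groups also stood apart, though the nearest libraries were close. Lamp1, an abundant glycoprotein lining the lysosomal membrane, had 1079, 1038, 1126 and 975.1 CPM uninfected and 1488, 1748, 1101 and 1484 CPM exposed (0.46 ± 0.12, adjusted p = 0.00208). Gpnmb, a transmembrane glycoprotein of macrophages and osteoclasts, had 572, 590.4, 526 and 497 CPM uninfected and 754, 1189, 515 and 1021 CPM exposed (0.67 ± 0.17, adjusted p = 0.00255). For Lamp1 and Gpnmb exposed replicate 3 lay inside the uninfected range, and the other exposed libraries were above it.

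Npc1, the membrane partner of Npc2 in cholesterol export, rose from 127 ± 12.1 to 184 ± 52.7 CPM at day 5, by 0.54 ± 0.14 (adjusted p = 0.00352). Lamp2, which also serves chaperone-mediated autophagy, rose from 234 ± 19.5 to 305 ± 84.0 CPM, by 0.38 ± 0.14 (adjusted p = 0.0276), but not without exposed replicate 2 or 4 or uninfected replicate 1 or 2 (adjusted p of 0.0532 to 0.158). Its log2 fold change ranged from 0.19 to 0.37 in those fits. Scarb2, the receptor that carries glucocerebrosidase to lysosomes, had 416 ± 14.8 CPM uninfected and 410.1 ± 66.1 CPM exposed at day 5 and was not called (-0.02 ± 0.10). Laptm5, a lysosomal protein of blood cells, had 1166 ± 51.1 and 1046 ± 186 CPM and was not called either (-0.16 ± 0.11).

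At day 1, Cd63 and Mcoln1 were higher and Laptm5 was lower. Cd63 had 871, 897, 889 and 804 CPM in uninfected and 1153, 1115, 1164 and 939 CPM in exposed day 1 libraries (0.34 ± 0.10, adjusted p = 0.021). Mcoln1 had 78.3, 80.1, 83.2 and 81.2 CPM uninfected and 91.0, 89.1, 88.8 and 104 CPM exposed (0.21 ± 0.07, adjusted p = 0.0297). Laptm5 had 1216, 1256, 1234 and 1288 CPM uninfected and 978, 979, 997 and 824 CPM exposed (-0.40 ± 0.11, adjusted p = 0.0126). The groups did not overlap for any of the 3. Exposed replicate 4 was the lowest library of its group for Cd63 and Laptm5 and the highest for Mcoln1, and without it Mcoln1 and Laptm5 were not called (Laptm5 at an adjusted p of 0.0526). Cd63 lost its call without exposed replicate 1, 2 or 3 or uninfected replicate 1 or 4 (0.0515 to 0.0772), and Mcoln1 also without uninfected replicate 1, 2 or 4 (0.0669 to 0.123 over its 4 fits). The interaction was positive for Cd68 (0.79 ± 0.21), Npc1 (0.72 ± 0.20), Gpnmb (0.72 ± 0.24) and Lamp1 (0.47 ± 0.16). Leaving out 1 of 4 libraries ended it for Gpnmb (exposed day 1 replicate 4, exposed day 5 replicate 2 or 4 or uninfected day 5 replicate 4, adjusted p of 0.0527 to 0.0583), and 1 of 6 ended it for Lamp1 (0.0535 to 0.0671).

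Of the 12 V-ATPase genes, 5 rose and 1 fell at day 5, and their median log2 fold change was 0.00. Among all genes tested, 28.6% were higher and 28.4% lower. Atp6v0a1, an isoform of the large membrane subunit a that helps to form the proton path, had 309, 319, 249.9 and 249 CPM uninfected and 433, 494, 427 and 481 CPM exposed at day 5. Groups were far apart, with a rise of 0.70 ± 0.09 (adjusted p = 1.78e-06). Atp6v0c, the proteolipid of the rotating ring, had 341, 342, 348 and 309 CPM uninfected and 424, 505, 346 and 445 CPM exposed (0.36 ± 0.10, adjusted p = 0.00328). Atp6v0d2, an isoform of the stalk subunit d known from osteoclasts, had 812, 784, 825 and 863 CPM uninfected and 994, 1410, 935 and 1057 CPM exposed (0.42 ± 0.11, adjusted p = 0.00385). In Atp6v0c 1 exposed library, replicate 3, lay inside the uninfected range, and in Atp6v0d2 none did. Atp6ap2, the accessory protein also called the prorenin receptor, had 129.5, 124, 129.8 and 121 CPM uninfected and 180.2, 223, 134 and 185 CPM exposed (0.52 ± 0.11, adjusted p = 0.000611). Atp6v1e1, part of the peripheral stalk, had 639.5, 595, 678 and 650.1 CPM uninfected and 822, 1165, 689 and 875 CPM exposed (0.47 ± 0.13, adjusted p = 0.00349). For both, all exposed libraries were above all uninfected ones, replicate 3 by the least. Atp6v1b2, the B subunit of the ring that splits ATP, fell from 515, 498, 505 and 464 CPM uninfected to 399, 445, 292 and 429.8 CPM exposed (-0.34 ± 0.11, adjusted p = 0.0111), without overlap.

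Set out by sector, a grouping made after the values had been seen, 3 of 4 V0 genes rose at day 5 with a median of 0.39, whereas 1 of 6 V1 genes rose and 1 fell with a median of -0.03. For these counts and those by promoter motif below, the shares of all genes tested at day 5 were 28.6% higher and 28.4% lower. The difference between sectors was not tested. Atp6v1a, the catalytic A subunit, had 382 ± 12.8 CPM uninfected and 356 ± 61.8 CPM exposed at day 5 (-0.10 ± 0.10). Atp6v1c1, subunit C, had 481 ± 26.2 and 470.2 ± 92.4 CPM (-0.03 ± 0.11). Neither was called, nor were the 4 genes that follow. Atp6v1d, the central shaft, had 174 ± 14.1 and 177 ± 36.5 CPM (0.03 ± 0.12). Atp6v1h, the regulatory subunit H, had 141 ± 9.19 and 138 ± 27.7 CPM (-0.03 ± 0.11). These 4 V1 genes thus had log2 fold changes near 0. Atp6ap1, the other accessory protein, had 592 ± 33.5 and 578 ± 107 CPM (-0.03 ± 0.11). Atp6v0d1, the widely expressed d isoform, had 218 ± 9.62 and 196 ± 28.8 CPM (-0.16 ± 0.10). The promoters of Atp6v1a and Atp6v0d1 shown above hold the 8-base palindrome. In the fit of all libraries, neither gene was called in any of the 4 comparisons. Of the 4 genes with the 8-base palindrome, 2 rose at day 5 (median 0.10), and of the 31 genes with a promoter window without it, 19 rose and 4 fell (median 0.42). For the 6-base E-box, 6 of the 9 genes with it rose (median 0.46), and 15 of the 26 without it rose and 4 fell (median 0.37). The 2 splits thus went in opposite directions, and neither difference was tested.

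The 2 isoforms of subunit d went apart. Per kilobase of merged exons, the ratio of Atp6v0d2 to Atp6v0d1 was 2.34 ± 0.0814 (SD, n = 4) in uninfected and 2.55 ± 0.0512 in exposed cells at day 1, and 2.49 ± 0.189 in uninfected and 3.7 ± 0.379 in exposed cells at day 5. Atp6v0d2 was the more abundant isoform in all 16 libraries. The groups did not overlap at either day (exact permutation test, two-sided, p = 0.0286, the smallest possible, and 0.0286 after adjustment over the 4 ratios). This ratio, too, was chosen after its values had been seen, which the adjustment does not cover.

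With all libraries in the fit, no V-ATPase gene among the 41 was called at day 1, when 13.4% of all genes tested were higher and 10.5% lower. At an unadjusted p under 0.05, edgeR gave 0 genes higher and 1 lower, and DESeq2 called 0 higher and 1 lower. The lower gene was Atp6v1b2, with 629, 677, 632 and 631 CPM in uninfected and 550.3, 541, 552 and 472 CPM in exposed libraries (-0.28 ± 0.11, edgeR adjusted p = 0.0645). In the fit of the 2 day 1 groups alone, 1 of the 12 was higher (Atp6v0a1) and 2 were lower (Atp6ap1 and Atp6v1b2). Of all genes, 23% were higher and 21.3% lower in that fit. By the libraries alone, 1 lay higher and 3 lay lower without overlap, against 19.6% and 19.7% of all genes. The interaction was positive for Atp6v1e1 (0.59 ± 0.18), Atp6ap2 (0.55 ± 0.16) and Atp6v0a1 (0.55 ± 0.13). Of 9 further V-ATPase genes that could be tested, 3 were higher at day 1 (33.3%, against 13.4% of all genes), and 5 were higher (55.6%, against 28.6%) and 1 was lower (11.1%, against 28.4%) at day 5. Among them Tcirg1, the a3 isoform of subunit a, which serves osteoclasts and phagosomes, had 424, 401, 456 and 413 CPM in uninfected and 653, 622, 602 and 903 CPM in exposed day 1 libraries. By day 5 it had 374, 385, 313 and 332 CPM uninfected and 829.8, 939, 889.6 and 1124 CPM exposed. Its log2 fold change of 0.71 ± 0.12 at day 1 (adjusted p = 0.000422) and 1.43 ± 0.13 at day 5 (adjusted p = 1.4e-08) exceeded that of every V-ATPase gene among the 41.

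**Figure D4:**
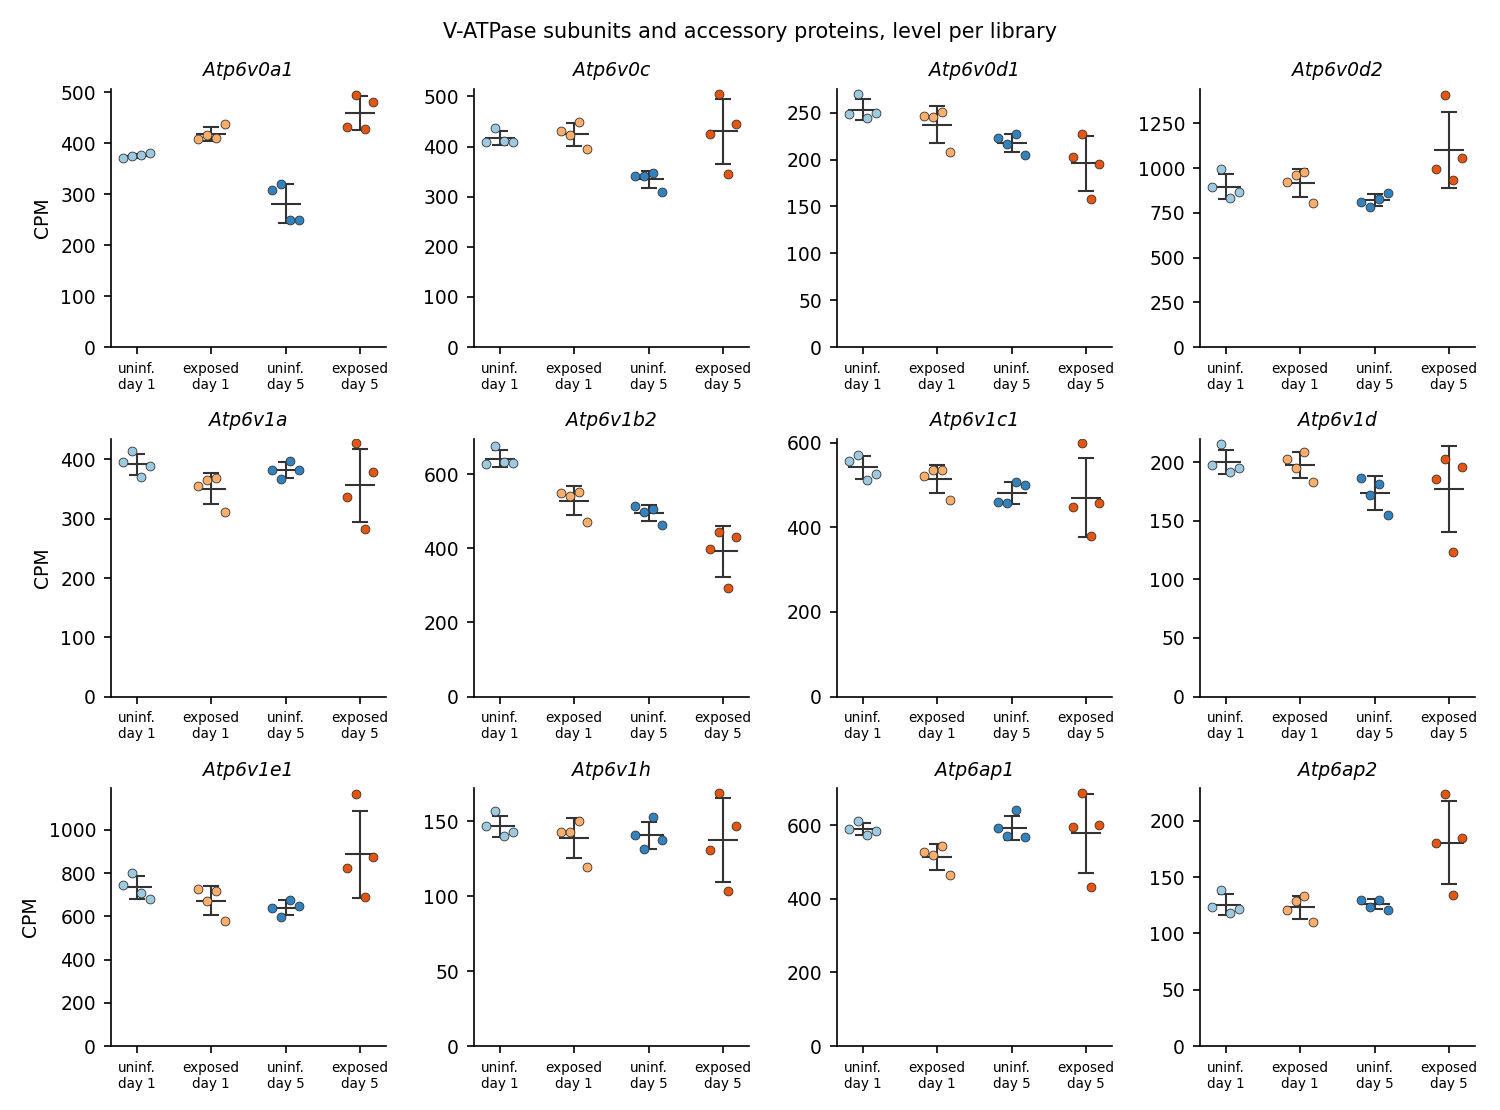
CPM (y axis, from 0) of the 12 V-ATPase genes in each library of the 4 groups (x axis), with the mean and SD of 4 libraries as bars. Atp6v0a1, Atp6v0d2, Atp6v1e1 and Atp6ap2 have all exposed day 5 libraries above the uninfected ones, and Atp6v1b2 has them below.

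The uninfected cells differed between days. In them, 9 of the 41 genes were lower at day 5 than at day 1 (22% of members, against 8.91% of all genes tested) and 0 were higher (against 10.8%), with a median log2 fold change of -0.13 beside 0.02 over all genes. The count of 0 is edgeR's. At an unadjusted p under 0.05 it had 3 genes higher, and DESeq2 called 0. In a fit of the 2 uninfected groups alone, 4 were higher (9.76%, against 21.5% of all genes) and 19 lower (46.3%, against 19.3%). The lower genes in the fit of all libraries were Lipa (-0.75 ± 0.15), Lgmn (-0.71 ± 0.13), Npc1 (-0.58 ± 0.14), Gaa (-0.52 ± 0.13), Gpnmb (-0.51 ± 0.17), Atp6v0a1 (-0.42 ± 0.09), Psap (-0.38 ± 0.12), Atp6v1b2 (-0.37 ± 0.11) and Atp6v0c (-0.32 ± 0.10). Lipa, for example, had 1084, 1186, 1037 and 1050 CPM in uninfected cells at day 1. Of the 9 calls, those of Gpnmb (11 libraries, adjusted p of 0.0534 to 0.125), Psap (10 libraries, 0.0505 to 0.118), Atp6v0c (5 libraries, 0.0534 to 0.0939) and Atp6v1b2 (uninfected day 1 replicate 2 or day 5 replicate 4, 0.0546 to 0.068) were lost on leaving out single libraries.

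The uninfected day 5 libraries serve as the control at day 5 and as the later time here, so the comparisons share samples and a low value there enters both. Of the 23 genes called higher at day 5, 18 had a lower mean in uninfected cells at day 5 than at day 1. Over all genes tested, 52.6% had a positive log2 fold change between the uninfected days. Set beside the uninfected day 1 mean instead, 22 of the 23 still had a higher mean in exposed day 5 cells, Npc1 being the exception (184 ± 52.7 CPM against 189.6 ± 7.30 CPM). In 11 of them (Glb1, Gla, Neu1, Gaa, Naglu, Npc2, Cd63, Mcoln1, Tfe3, Mitf and Atp6v0a1) all 4 exposed day 5 libraries were above all 4 uninfected day 1 libraries. For the counts of 22 and 11 no share over all genes was taken, so they only describe these genes.

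Levels were compared between genes per kilobase of merged exons, which understates genes whose annotation includes long retained introns. In every group Psap, Cd68 and Lamp1 were the 3 most abundant, with 1860, 521 and 394 CPM per kilobase in uninfected cells at day 5. Npc2 stood at rank 7 of 41 in uninfected cells at day 5 and at rank 4 in exposed cells, with 228 and 406 CPM per kilobase. Tfe3 was the lowest of all in 3 groups and Tfeb was the lowest in exposed cells at day 5 (4.29 CPM per kilobase, against 5.07 for Tfe3). Gaa stood at rank 39 in uninfected cells at day 5 (8.82 CPM per kilobase) and at rank 35 in exposed cells (20.1).

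Within a group, the members tended to be high or low in the same library. In exposed cells at day 5, replicate 2 was the highest library for 38 of the 41 genes (29.6% of all genes tested had it highest) and replicate 3 was the lowest for 36 (33.1% of all genes). The median log2 deviation from the mean of the other libraries was 0.36 in replicate 2 and -0.49 in replicate 3, beside 0 and 0.01 over all genes. These libraries had 81284210 and 54252976 counts. Without replicate 2 alone, 21 genes were higher and 8 lower at day 5, with Psap, Laptm5 and Atp6v0d1 newly among the lower ones. Without replicate 3 alone, 25 were higher and 4 lower. On replicates 3 and 4 of every group alone, 8 were higher (Glb1, Neu1, Gaa, Lipa, Npc2, Tfe3, Mitf and Atp6v0a1) and 4 were lower (Man2b1, Ppt1, Fuca1 and Tfeb). In exposed cells at day 1, replicate 4, the library with the fewest counts (46154875), was the lowest for 36 genes (35.6% of all genes). Without it, the day 1 calls were 1 higher, Cd63, and 1 lower, Lgmn. For the counts of genes called in these subsets of libraries no share over all genes is given, so they only describe these genes. The part of depth and of library code in these patterns was not tested.

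**Figure D5:**
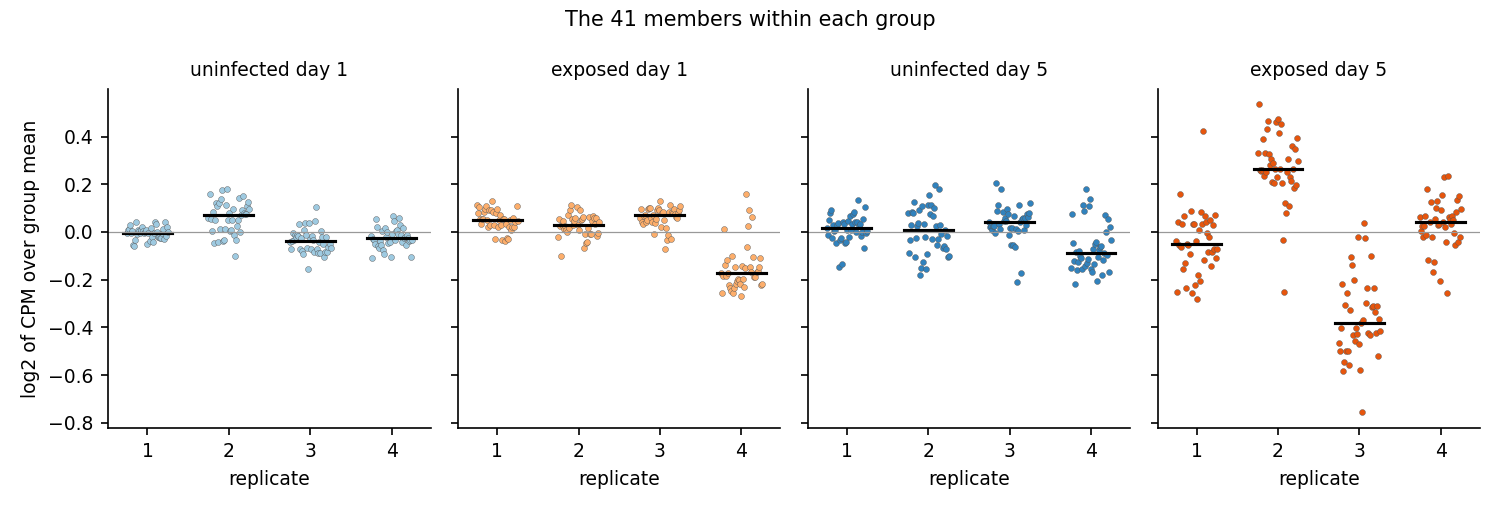
Log2 of CPM over the group mean (y axis) for each of the 41 genes (points) in replicates 1 to 4 (x axis) of the 4 groups, with the median over genes as a line. In exposed cells at day 5 the points of replicate 2 lie mostly above 0 and those of replicate 3 below, and in exposed cells at day 1 replicate 4 lies low.

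Markers of macrophages and of other cells also differed between the groups. The summed level of the 8 general macrophage markers, which include Cd68, was 3221 to 3539 CPM in uninfected and 5361 to 6168 CPM in exposed cells at day 1, and 4 of the 8 were called higher. At day 5 it was 3575 to 4047 CPM in uninfected and 7544 to 13000 CPM in exposed cells, with 7 of 8 higher. Among all genes tested, 13.4% were called higher at day 1 and 28.6% at day 5. The sum was thus higher in exposed cells at both days, including day 1, when the median of the 41 genes was -0.08. Within the exposed day 5 group it was highest in replicate 3, the library in which 36 of the 41 genes were lowest. The largest part of this sum was Lyz2 (1613 to 10830 CPM over all libraries), itself highest in that library. Mertk was also highest there by a little, while Ptprc, Adgre1, Csf1r, Cd68 and Itgam were lowest there, so the sum mainly shows Lyz2. The 8 alveolar macrophage markers summed to 15090 to 16710 CPM in uninfected and 10010 to 12590 CPM in exposed cells at day 1, with 3 lower and 1 higher. At day 5 they summed to 18360 to 25860 CPM in uninfected and 7619 to 9844 CPM in exposed cells, with 4 lower and 2 higher. In uninfected cells the largest part of this sum was Chil3, which ranged from 2187 to 20110 CPM over all libraries. Of all genes tested, 10.5% were called lower at day 1 and 28.4% at day 5.

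Of the 21 markers of other cell types, 11 passed the filter. At day 1, S100a8 was higher (1.37 ± 0.19) and the neutrophil enzyme Mpo was lower (-1.34 ± 0.39) in exposed cells. At day 5, the endothelial genes Cdh5 (3.02 ± 0.39) and Pecam1 (0.68 ± 0.15) and the neutrophil gene Ly6g (1.98 ± 0.56) were higher. The fibroblast genes Pdgfra (-0.89 ± 0.09) and Col1a1 (-1.12 ± 0.43), the airway gene Scgb1a1 (-2.01 ± 0.18), S100a9 (-0.89 ± 0.19) and Mpo (-2.35 ± 0.38) were lower. The others called at day 5 had lower CPM than Pdgfra in every library. The 3 endothelial markers summed to 2.88 to 3.34 CPM in uninfected and 6.11 to 9.13 CPM in exposed cells at day 5, and the 4 fibroblast markers, mostly Pdgfra, to 20.4 to 22.4 and 9.44 to 13.2 CPM. The 4 epithelial markers summed to 2.55 to 3.38 CPM uninfected and 0.503 to 0.906 CPM exposed, and the 4 neutrophil markers, mostly S100a8, to 446 to 613 and 406 to 880 CPM. Mitochondrial transcripts made up 1.58% to 1.84% of counts in uninfected and 0.78% to 1.24% in exposed day 5 libraries. The part of any of these in the results was not tested.

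A wider list of 82 lysosomal genes outside the 41, of which 74 were tested, had 15 higher (20.3%, against 13.4% of all genes) and 7 lower (9.46%, against 10.5%) at day 1, with a median log2 fold change of 0.05. At day 5 it had 31 higher (41.9%, against 28.6%) and 17 lower (23%, against 28.4%), with a median of 0.14. The share of lower genes at day 1 was near that of all genes. Among 22 tested hydrolases 12 rose (54.5%) and 5 fell (22.7%) at day 5. Acp5, the tartrate-resistant acid phosphatase of osteoclasts and activated macrophages, had 165, 167, 184 and 159.9 CPM uninfected and 901, 1452, 723 and 1075 CPM exposed at day 5. The groups were far apart, and its rise of 2.62 ± 0.15 (adjusted p = 4.24e-11) was larger than that of any of the 41 genes. Gm2a, the activator of ganglioside breakdown, was lower at both days (-0.71 ± 0.12 and -1.47 ± 0.13), Manba, beta-mannosidase, was lower at day 5 (-1.03 ± 0.10), and the phospholipase Pla2g15 was lower at both (-0.35 ± 0.09 and -0.81 ± 0.09). Ids, a sulfatase for heparan and dermatan sulfate, had a negative interaction (-0.78 ± 0.15).

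Of 20 tested membrane proteins on the wider list, 7 rose (35%) and 5 fell (25%) at day 5, close to the 28.6% and 28.4% of all genes. Clcn7, the chloride-proton exchanger that accompanies the pump, had 116, 109, 110.2 and 117 CPM uninfected and 229.8, 216, 234 and 287 CPM exposed at day 1. At day 5 it had 97.6, 98.8, 76.8 and 78.0 CPM uninfected and 323, 379, 307 and 352 CPM exposed. The rise was 1.10 ± 0.11 at day 1 (adjusted p = 3.97e-07) and 1.95 ± 0.11 at day 5 (adjusted p = 2.16e-11), with no overlap at either. Mcoln2, a relative of Mcoln1, rose by 0.82 ± 0.16 and 1.88 ± 0.16. The metal transporter Slc11a1, known from resistance to intracellular bacteria, had a positive interaction (1.18 ± 0.17) and Cln3 a negative one (-0.92 ± 0.18).

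Of 17 tested nutrient-sensing regulators, 5 were higher and 5 lower at day 5 (29.4% each), about the share over all genes tested (28.6% and 28.4%). Tfec, the fourth gene of the TFE family, fell by 0.68 ± 0.10 on the log2 scale, and its exposure effect differed between days by -0.91 ± 0.13. Lamtor1, which anchors mTORC1 regulators at the lysosome, had a negative interaction (-0.71 ± 0.14) and Fnip2, a partner of folliculin, a positive one (1.29 ± 0.17). At day 1, Flcn, folliculin itself, was higher (0.28 ± 0.06) and Mtor was lower (-0.29 ± 0.08). In uninfected cells, Fnip2 (-1.14 ± 0.12), Tsc1 (-0.47 ± 0.09), Tsc2 (-0.39 ± 0.07) and Fnip1 (-0.39 ± 0.08) were lower at day 5 than at day 1, and Gm2a (0.45 ± 0.12) and Lamtor2 (0.24 ± 0.08) were higher. Over the wider list, 2 genes were higher (2.7%, against 10.8% of all genes) and 15 lower (20.3%, against 8.91%) in that comparison. Of 6 genes for mannose 6-phosphate sorting, which delivers hydrolases, 2 rose and 1 fell at day 5. These were 33.3% and 16.7%, against 28.6% and 28.4% of all genes. Gnptab, which starts the mannose 6-phosphate tag, rose by 1.03 ± 0.08 at day 5 (adjusted p = 2.52e-09), and the sorting receptor Sort1 was lower at day 1 (-0.39 ± 0.11).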

How the data were processed

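Polyadenylated RNA of 16 MPI-2 cultures was sequenced, in 4 groups of 4 libraries. The deposited values are whole-number read counts per gene, one file per library, which the authors made with STAR on GRCm39, per the submitters' processing notes, and on the reverse strand per the file names. Versions, annotation and the handling of reads that match several genes are not given in the sources used here. The 41 genes and all lists were chosen with earlier results of these data known. Total counts ranged from 46154875 to 81995629, and replicates differed by more than counting noise (chi-square per degree of freedom of at least 5.59).

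Counts were filtered with filterByExpr of edgeR 4.0.16 (R 4.3.3, limma 3.58.1), scaled by TMM and fitted with the quasi-likelihood method over all 16 libraries and 4 groups, with contrasts for exposure at either day, for their difference, and for day in uninfected cells. P-values were adjusted by Benjamini-Hochberg over 17190 genes. The standard error is the size of the log2 fold change divided by the square root of F. CPM, a count per TMM-scaled library size, is relative within the library. Symbols, exon lengths and promoters came from GENCODE M21 and RefSeq on the preceding mouse build, for names, lengths and sequence only. Values per library were given for the TFE factors and, in each other role, for up to 5 called genes per direction with the smallest p at day 5, and also for day 1 calls. Of the wider list up to 4 genes per direction and comparison were named. Tested on simulated counts for 17190 genes, the fit recovered 55.2% of changes of 0.5 on the log2 scale, 92.5% of 1 and 100% of 2 at day 5, and 53.7%, 91% and 100% at day 1. For the interaction it recovered 13.4%, 77.6% and 95.5%. The simulation gave all groups 1 dispersion and 1 base level per gene, and the changed genes, above 1 CPM, could lie below every member. In the data the median SD of the members on the log2 scale was 0.277 in exposed day 5 and 0.0586 in uninfected day 1 libraries. The shares recovered therefore do not measure the sensitivity for these genes at either day. Alternatives were DESeq2 1.42.0, RLE factors, other filters, fits of the compared groups alone, a replicate block and subsets of libraries. Ratios were tested in scipy 1.17.1 and figures drawn in matplotlib 3.10.9.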

Additional observations from a re-analysis of the deposited data

Results flagged for a closer look

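In some groups of 4 libraries 1 library lay far from the other 3. Of 164 groups looked at (41 genes in 4 groups), 18 had such a library, where chance would give about 1 in 20, or 8.2. Of the 18, 10 were exposed day 1 replicate 4, the library with the fewest counts. It was the lowest of its group for Gla (175 CPM), Gaa (46.7 CPM), Lipa (786 CPM), Ppt1 (99.7 CPM), Psap (4740 CPM), Laptm5 (824 CPM), Gpnmb (642 CPM), Atp6v0d1 (208 CPM) and Atp6v1b2 (472 CPM), and the highest for Mcoln1 (104 CPM). Uninfected day 5 replicate 4 was low for Lipa (599.5 CPM) and Psap (4666 CPM). Uninfected day 1 replicate 2 was low for Smpd1 (52.8 CPM) and high for Atp6v0c (438 CPM) and Atp6v1b2 (677 CPM). Exposed day 5 replicate 2 was high for Asah1 (209 CPM). Mitf was low in exposed day 5 replicate 3 (114 CPM) and in uninfected day 1 replicate 3 (94.5 CPM).

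The effect of exposure differed between the days, by the interaction test in edgeR, for 22 of the 41 genes. The differences, day 5 minus day 1 on the log2 scale, were Glb1 (0.62), Gla (0.65), Neu1 (0.61), Gaa (1.37), Man2b1 (-0.41), Lgmn (0.70), Fuca1 (-0.41), Naglu (0.72), Lipa (1.21), Tpp1 (0.53), Smpd1 (0.42), Npc2 (0.68), Lamp1 (0.47), Cd68 (0.79), Npc1 (0.72), Gpnmb (0.72), Tfeb (-0.83), Tfe3 (0.60), Mitf (0.36), Atp6ap2 (0.55), Atp6v0a1 (0.55) and Atp6v1e1 (0.59). Among the genes of the wider list that are named in the text they were Acp5 (2.07), Fnip2 (1.29), Slc11a1 (1.18), Gnptab (0.74), Tfec (-0.91), Ids (-0.78), Cln3 (-0.92) and Lamtor1 (-0.71). The uninfected libraries of both days enter each of these values.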

How the results depend on the processing

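Of 4059 values of the 41 genes under alternatives, 3774 stayed called or stayed not called, 187 lost the call and 98 gained it. While 0 called values changed sign, 96 values called in neither fit did. With all libraries, those values were at most 0.17 in size. Counts for the 41 genes moved by over 1.5 times as follows, and the cause was not tested. No shares over all genes are given here, so these counts and those of the wider list below only describe the listed genes. Genes higher at day 1, 4 with all libraries, were 2 with RLE factors, 1 without a filter, and 0 on replicates 1 and 2 or on 3 and 4 (1 to 4 with 1 library left out). Genes lower at day 1, 2, were 4 with DESeq2, 10 on the 2 groups alone, 7 with exposed day 5 on replicates 1 and 4, 1 on replicates 1 and 2 and 0 on 3 and 4 (1 to 5). Genes higher at day 5, 23, were 8 on replicates 3 and 4 (21 to 25), and genes lower, 5, were 3 on the 2 groups alone (4 to 8). Positive interactions, 19, were 12 on replicates 1 and 2 and 2 on 3 and 4 (15 to 25). Negative ones, 3, were 1 with RLE factors, without a filter and on replicates 3 and 4, and 0 on replicates 1 and 2 (1 to 4). Uninfected genes higher at day 5, 0, were 2 with a filter of 1 CPM in 4 libraries, and 4 on the 2 groups alone or with exposed day 5 on replicates 1 and 4 (0 to 2). Genes lower, 9, were 19 and 17 in those fits and 1 on replicates 1 and 2 or on 3 and 4 (5 to 13). Promoters with a match, 4, were 9 with the 6-base motif.

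For the wider list, genes higher at day 1, 15, were 23 on the 2 groups alone, 4 on replicates 1 and 2 and 2 on 3 and 4 (11 to 19). Lower ones, 7, were 11 with DESeq2 or RLE factors, 15 on the 2 groups alone, 13 with exposed day 5 on replicates 1 and 4, and 1 on replicates 1 and 2 or on 3 and 4 (3 to 12). At day 5 the 31 higher were 19 on replicates 3 and 4 (31 to 35), and the 17 lower ranged from 15 to 18. Positive interactions, 23, were 6 on replicates 3 and 4 (21 to 29), and negative ones, 13, were 8 on replicates 1 and 2 and 6 on 3 and 4 (11 to 16). Uninfected genes higher, 2, were 1 with RLE factors, without a filter and on replicates 3 and 4, 5 with the 1 CPM filter, 11 on the 2 groups alone, 8 with exposed day 5 on replicates 1 and 4 and 0 on replicates 1 and 2 (0 to 6). Lower ones, 15, were 26 on the 2 groups alone and 2 on replicates 1 and 2 or on 3 and 4 (10 to 19).

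The labels number the replicates alike in every group, but same-numbered libraries did not deviate together (correlations of -0.0992 to 0.0597 over genes), so the numbers were not taken as pairs. With the number as a replicate block, 3 genes were higher at day 1 in place of 4, and 23 and 5 remained the counts at day 5. Interaction calls were the same, and in uninfected cells Psap lost its call and Tfeb gained one.

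The 4 libraries per group limit the precision, and changes of 0.5 on the log2 scale were often missed in simulated data. The interaction was the least sensitive comparison there. Spread was widest in exposed day 5 libraries, a difference between groups that the simulated data did not hold.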
